A study of Chlorocebus aethiops with 3 samples.

Results

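The mRNAs described here encode the core machinery of RNA interference, namely the nuclease DROSHA with its partner DGCR8, the export receptor XPO5, the nuclease DICER1 with its partners TARBP2 and PRKRA, and the Argonautes AGO1 to AGO4. They were listed by RefSeq accession because RNA helicase A (RHA, encoded by DHX9) takes part in loading small RNAs into the silencing complex. Of the 10 accessions, 9 were found on the array, and 12 of its 41000 probes carried them. NM_004178, the accession of TARBP2, was carried by no probe spot in the tables used here, so this mRNA was not analysed. Of the 12 probes, 11 passed the filter on dim signals, as did 18143 of all 41000.

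COS-7 is an SV40-transformed kidney line of the African green monkey. The cells were transfected with siRNAs at 0.5 nM, on the one side against nucleotides 2701-2721 and 2784-2803 of the human RHA coding region, on the other with scrambled siRNA. Both groups therefore received siRNA, and both were transfected again after being split. After transfection, both spent 4 h in medium without serum and then 24 h with serum. RNA was taken from the pooled heavy polysome fractions of a sucrose gradient of 15% to 45%, where mRNAs carrying many ribosomes sediment. On each of 3 arrays, described in the labels as biological replicates, knockdown RNA was labelled with Cy5 and control RNA with Cy3, and 0 arrays had the dyes swapped. The 3 arrays lay on 1 slide. Nothing further says how separate the cultures were. The dye and the knockdown cannot be told apart, and human probes were hybridised with monkey RNA.

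In the microRNA pathway, DROSHA and DGCR8 form the Microprocessor, which cuts the hairpin out of the primary transcript in the nucleus. XPO5 carries the hairpin to the cytoplasm, where DICER1, assisted by TARBP2 or PRKRA, cuts it to a short duplex. An Argonaute takes up one strand of the duplex and, guided by it, represses matching mRNAs. AGO2 is the member of the family known for strong slicing of a fully matched target, which is what siRNAs use. RHA is known to associate with DICER1, TARBP2 and AGO2.

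The arrays were dim and the knockdown channel was the brighter one. The share of probes well above background lay between 37.5% and 50.7% for control RNA and between 45.5% and 53.1% for knockdown RNA, replicate 3 having the highest share in both. The number of arrays limits the precision. The messages were measured as the log2 ratio of knockdown over control within each array, placed relative to the array's loess curve, which follows the typical ratio at each brightness. RHA itself was measured by 2 tested probes. On replicates 1, 2 and 3, A_23_P97749 gave -0.041, -0.20 and -0.60 and A_24_P36847 gave -0.121, -0.115 and -0.756. Both lay below 0 on all 3 arrays, lowest on replicate 3, and neither passed the test (limma, adjusted p = 0.217 and adjusted p = 0.21). The remaining RHA probe, A_24_P808534, was too dim to be tested and gave -0.289, 0.132 and -0.123, on both sides of 0. The groups are named after their labels.

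The 4 Argonaute mRNAs rose in the heavy polysomes of knockdown cells, and none of the other members passed the test. All 5 Argonaute probes were called risen (limma, adjusted p under 0.05 over all tested probes), from 1.31-fold to 2.16-fold. One of them, the dimmer of the AGO1 probes, was tested only because its knockdown channel was above background on all 3 arrays, and its call therefore adds no support. With both channels required to be well above background on all 3 arrays, 7 member probes were tested, and the 4 Argonaute probes among them were called and the other 3 were not, while 11.9% of all probes tested that way rose. Of the 6 tested probes for DROSHA, DGCR8, XPO5, DICER1 and PRKRA, 0 were called. Among the 11 tested member probes 5 thus rose, or among all tested probes 9.72%. No member probe fell, where 8.65% of all tested probes did. As processed here, AGO2 was the 1 member that rose by at least 2-fold, a size reached by 2.74% of the tested probes. With Agilent's processed ratios the brighter AGO1 probe reached that size too, at a log2 ratio of 1.11. Without replicate 1, AGO2 did not reach it, at 0.92. On all 3 arrays, 8 of the 11 lay above 0, as did 31.8% of the tested probes. The 8 include XPO5 and the dimmer AGO1 probe, which passed the filter through the knockdown channel alone. Both DGCR8 probes, also among the 11, passed it in the same way. The median of the mean log2 ratios was 0.38 over the 11 member probes and 0.018 over all tested probes. In RNA pooled from whole cultures, more RNA per cell, a larger share of the RNA in heavy polysomes and a different mix of cells cannot be told apart.

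**Figure D1:**
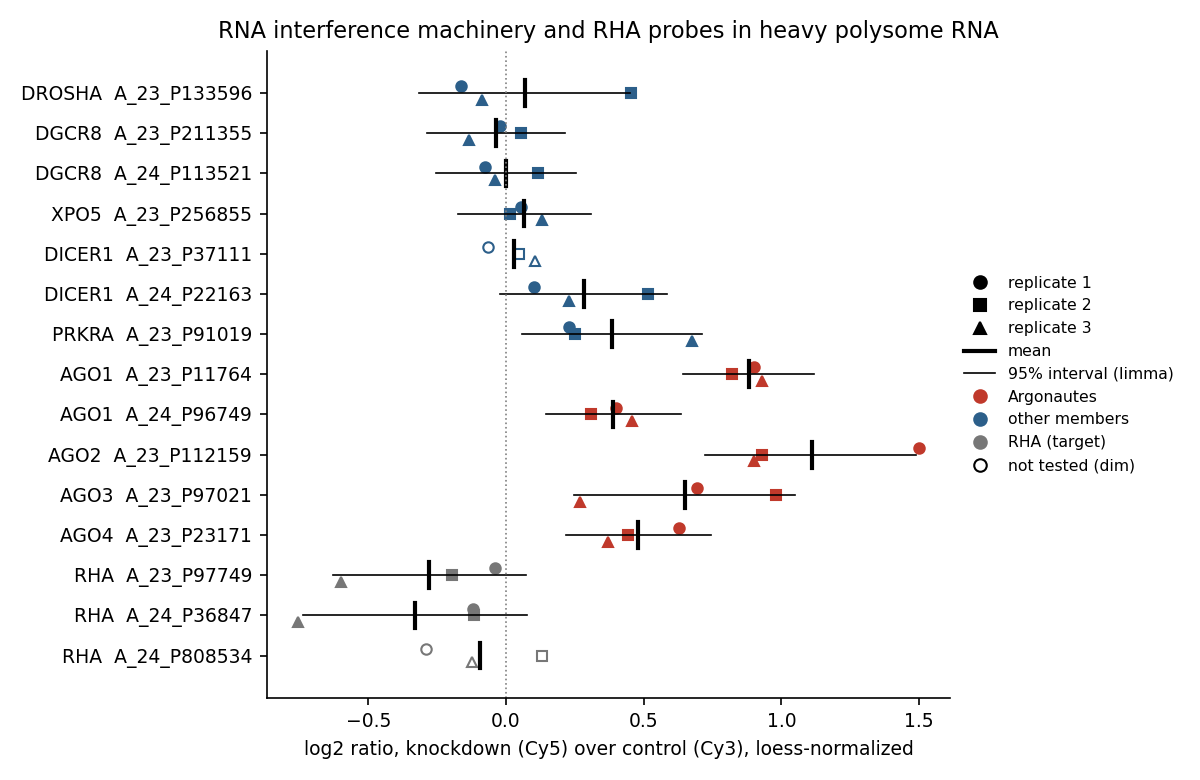
Log2 ratios of knockdown over control for each member probe and each RHA probe (rows), with one symbol per replicate, a thick bar for the mean of 3 arrays and a thin line for the 95% interval of the fit. All 15 array values of the Argonaute probes lie to the right of 0, from 0.27 to 1.5, while those of DROSHA and DGCR8 lie on both sides.

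AGO2 (NM_012154), the slicing Argonaute, had the highest mean ratio of the set as normalized here, though AGO3 was higher on replicate 2 and AGO1 on replicate 3. Its probe A_23_P112159 had control signals of 175, 204 and 583.5 on replicates 1, 2 and 3 and knockdown signals of 1033, 1206 and 3031.5, against local backgrounds of 26.5 to 29.5 in the control channel. The normalized log2 ratios were 1.5, 0.93 and 0.90. Replicate 1 stood above the other two, which lay close together. The mean was 1.11 ± 0.34 (SD, n = 3), or 2.16-fold with a 95% interval of 1.65 to 2.82, and the probe was called risen (limma, adjusted p = 0.018). Of the 18143 tested probes, 396 had a higher mean.

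AGO1 (NM_012199), an Argonaute that binds microRNAs and represses their targets, was measured by 2 probes. A_23_P11764 had control signals of 102, 86 and 204 and knockdown signals of 427, 494 and 1058. Its log2 ratios of 0.90, 0.82 and 0.93 were the most even of the Argonaute probes, with a mean of 0.88 ± 0.057 (SD, n = 3), or 1.84-fold with a 95% interval of 1.56 to 2.18 (limma, adjusted p = 0.0152). The other probe, A_24_P96749, was dim, with control signals of 38, 32 and 57 over local backgrounds of 29, 27 and 30, and its control channel was well above background on 2 of 3 arrays. Its log2 ratios were 0.40, 0.31 and 0.46, averaging 0.39 ± 0.075 (SD, n = 3), or 1.31-fold with a 95% interval of 1.1 to 1.55, just inside the threshold (limma, adjusted p = 0.0498). It passed the filter through its knockdown channel alone, so that this call is not counted as support for the rise of AGO1. The ratios of this dimmer probe lay above 0 on every array, a sign that passing by the knockdown channel favours. They were smaller than those of the brighter probe.

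The ratio of the brighter AGO1 probe exceeded that of the dimmer one by 0.50, 0.51 and 0.47 on the 3 arrays, a mean difference of 0.49 ± 0.020 (SD, n = 3; exact sign-flip test, 2-sided, p = 0.25, the smallest that 3 arrays allow). This gap moved with the processing, and its cause was not tested. The offset of 50 added to every signal draws the ratio of a dim probe toward 0, and with an offset of 0 the means were 1.08 and 0.93. Without background correction they were 0.97 and 0.52, and with each array centred on the median of all its probes 1.43 and 0.61. Agilent's processed log ratios gave 1.11 for the brighter and 1.38 for the dimmer probe, the latter above the 1.28 of AGO2.

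AGO3 (NM_024852) and AGO4 (NM_017629), a further pair of microRNA-binding Argonautes, rose as well. For AGO3, probe A_23_P97021 had control signals of 139.5, 90 and 265.5 and knockdown signals of 484, 583 and 819.5. Its log2 ratios of 0.70, 0.98 and 0.27 had the widest spread of the family, with replicate 3 well below the others. The mean was 0.65 ± 0.36 (SD, n = 3), or 1.57-fold with a 95% interval of 1.19 to 2.07 (limma, adjusted p = 0.0476). For AGO4, probe A_23_P23171 had control signals of 56, 55 and 97.5 and knockdown signals of 219, 235 and 325.5. Its log2 ratios of 0.63, 0.44 and 0.37 lay closer together, with a mean of 0.48 ± 0.13 (SD, n = 3), or 1.40-fold with a 95% interval of 1.16 to 1.68 (limma, adjusted p = 0.0363).

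The Argonaute calls lay near the threshold and depended on the arrays used. Without replicate 2, 0 of 18143 probes passed the adjusted threshold (with 2228 positive and 2010 negative ratios at an unadjusted limma p under 0.05), and the mean log2 ratios were 0.91 and 0.43 for the AGO1 probes, 1.2 for AGO2, 0.48 for AGO3 and 0.50 for AGO4, with adjusted p from limma between 0.117 and 0.217. Without replicate 1, AGO2 and the brighter AGO1 probe remained called, at 0.92 and 0.88. Without replicate 3, those 2 and AGO3 remained called, at 1.21, 0.86 and 0.84.

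Among the Argonautes the order of the means was AGO2, AGO1 by its brighter probe, AGO3 and AGO4, and neighbours in that order did not differ beyond their spread. AGO2 exceeded AGO1 by 0.60 and 0.11 on replicates 1 and 2 and lay 0.032 below it on replicate 3, a mean difference of 0.23 ± 0.33 (SD, n = 3). AGO3 minus AGO1 was -0.20, 0.16 and -0.66, averaging -0.23 ± 0.41 (SD, n = 3). AGO4 minus AGO3 was -0.068, -0.54 and 0.10, averaging -0.17 ± 0.33 (SD, n = 3). In none of these 3 comparisons did the arrays keep one sign. AGO4 lay below AGO2 on all 3 arrays, by -0.87, -0.49 and -0.53, averaging -0.63 ± 0.21 (SD, n = 3), and below AGO1 by -0.27, -0.38 and -0.56, averaging -0.40 ± 0.15 (SD, n = 3). Over the 9 pairs of members compared, the exact sign-flip test, 2-sided, gave p = 0.25 at the lowest and an adjusted p = 0.75 for every pair, so that 3 arrays can place no pair apart.

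The Microprocessor mRNAs gave ratios on both sides of 0. DROSHA (NM_013235), the nuclease of the complex, had control signals of 307, 163 and 611 and knockdown signals of 551.5, 677 and 1512 with probe A_23_P133596. Its log2 ratios were -0.16, 0.45 and -0.086, averaging 0.068 ± 0.34 (SD, n = 3), with a 95% interval of -0.32 to 0.45 (limma, adjusted p = 0.782). Replicate 2 alone lay above 0, and without it the mean was -0.13. The mean moved further with the scaling, to 0.69 with each array centred on the median of all its probes (limma, adjusted p = 0.143) and to 0.37 centred on the tested probes (limma, adjusted p = 0.201). The interval leaves room for a change of 1.37-fold upward or to 0.803 times the control level.

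DGCR8 (NM_022720), which recognises the hairpin for DROSHA, was measured by a pair of dim probes whose control channel was well above background on 2 of 3 arrays. A_23_P211355 had log2 ratios of -0.023, 0.053 and -0.14, averaging -0.035 ± 0.095 (SD, n = 3), with a 95% interval of -0.29 to 0.22 (limma, adjusted p = 0.829). A_24_P113521 had -0.078, 0.12 and -0.040, averaging -0.00046 ± 0.10 (SD, n = 3), with a 95% interval of -0.25 to 0.25 (limma, adjusted p = 0.998). Both probes were highest on replicate 2, as DROSHA was. The control signals of the second probe, 38.5, 28 and 42.5, lay within 16 units of the local background, so that a change in DGCR8 was hard to detect at this signal. DGCR8 minus DROSHA was 0.14, -0.40 and -0.051 on the 3 arrays, averaging -0.10 ± 0.28 (SD, n = 3).

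XPO5 (NM_020750), the export receptor of the hairpin, had a control signal well above background on replicate 3 alone. Its probe A_23_P256855 had control signals of 35.5, 33 and 50 and knockdown signals of 84, 88.5 and 132. The log2 ratios of 0.054, 0.013 and 0.13 were above 0 on all 3 arrays, though by little. Their mean was 0.067 ± 0.061 (SD, n = 3), with a 95% interval of -0.18 to 0.31 (limma, adjusted p = 0.659). The offset of 50 draws the ratio of so dim a probe toward 0, so that a change in XPO5 was hard to detect. The mean was 0.16 with an offset of 0, 0.38 with Agilent's ratios and -0.13 when centred on the tested probes (limma, adjusted p = 0.66, 0.336 and 0.494).

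DICER1 and PRKRA lay above 0 on all 3 arrays and did not pass the test. For DICER1 (NM_177438), which cuts the hairpin to the duplex, probe A_24_P22163 had control signals of 73.5, 42 and 94 and knockdown signals of 186, 207.5 and 294. Its log2 ratios were 0.10, 0.52 and 0.23, averaging 0.28 ± 0.21 (SD, n = 3), or 1.22-fold with a 95% interval of 0.985 to 1.5 (limma, adjusted p = 0.164). Replicate 2 was the highest, and without it the mean was 0.17. The other DICER1 probe, A_23_P37111, was left out by the filter, since its control channel was well above background on 0 of 3 arrays and its knockdown channel on 1. At those signals its log2 ratios were -0.064, 0.047 and 0.10.

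PRKRA (NM_003690), a double-stranded RNA-binding partner of DICER1, had control signals of 78, 58 and 152.5 and knockdown signals of 207, 219.5 and 662 with probe A_23_P91019. Its log2 ratios were 0.23, 0.25 and 0.67, so that replicate 3 stood above the others, and without it the mean was 0.24. The mean was 0.38 ± 0.25 (SD, n = 3), or 1.31-fold with a 95% interval of 1.04 to 1.64, and the threshold was missed (limma, adjusted p = 0.101). This mean is close to that of the dimmer AGO1 probe, 0.39, which passed with a narrower spread over the arrays. PRKRA minus DICER1 was 0.13, -0.27 and 0.45, averaging 0.10 ± 0.36 (SD, n = 3), with no common sign.

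As normalized here, AGO2 exceeded DICER1, its partner in loading, on all 3 arrays, by 1.39, 0.41 and 0.67. The mean difference was 0.83 ± 0.51 (SD, n = 3; exact sign-flip test, 2-sided, p = 0.25). With Agilent's ratios DICER1 lay above AGO2 on replicate 2, at 1.25 against 1.06. The mean difference was then 0.67, and 0.73 with an offset of 0 (exact sign-flip test, 2-sided, p = 0.5 for each). No other Argonaute was tested against a member outside the family, so that a difference between called and uncalled members is not shown by the calls.

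**Figure D2:**
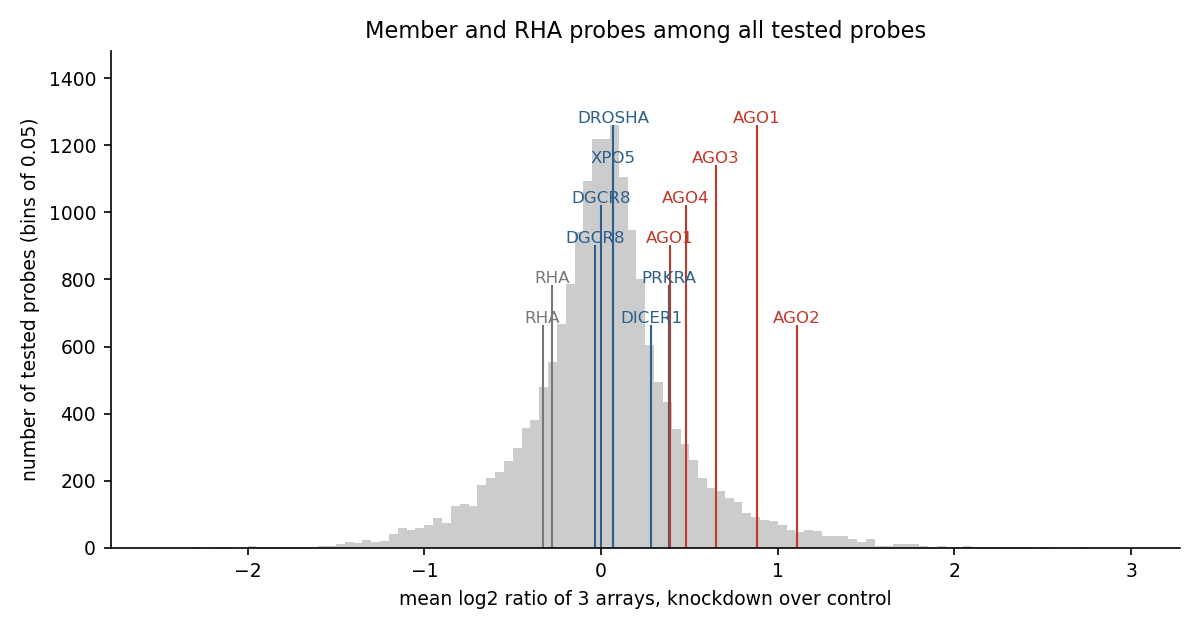
Mean log2 ratio over 3 arrays of all 18143 tested probes (grey histogram, bins of 0.05), with vertical lines at the tested member and RHA probes, whose heights only separate the names. The Argonaute probes lie between 0.39 and 1.11, in the right shoulder and tail, and the DROSHA, DGCR8 and XPO5 probes lie near the middle.

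Within each array, the Argonaute probes ranked above most of the tested probes. Their values exceeded between 77.3% and 98.0% of the tested probes of the same array, the lowest rank being that of AGO3 on replicate 3 and the highest that of AGO2 on replicate 1. By the mean of 3 arrays, AGO2 exceeded 97.8% of the tested probes, AGO1 96.0% by its brighter and 84.9% by its dimmer probe, AGO3 92.5% and AGO4 88.4%. PRKRA exceeded 84.7% and DICER1 79.0%. DROSHA, XPO5 and both DGCR8 probes ranked between 42.7% and 56.7%. The RHA probes exceeded 19.6% and 16.8%.

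The place of 0 matters for these values, because the knockdown channel was the brighter one at every tested member probe on every array. Before the loess step, all Argonaute probes had a log2 ratio of Cy5 over Cy3 between 0.96 and 2.38, and the loess curve took off 0.56 to 1.45 at their brightness. For AGO2 the ratios before that step were 2.36, 2.38 and 2.32, and the curve stood at 0.87, 1.45 and 1.42. Before normalization AGO2 was thus nearly the same on the 3 arrays, and its higher normalized value on replicate 1 went with the lower curve of that array. For DROSHA the ratios before normalization were 0.70, 1.84 and 1.30, and the curve stood at 0.86, 1.39 and 1.38.

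**Figure D3:**
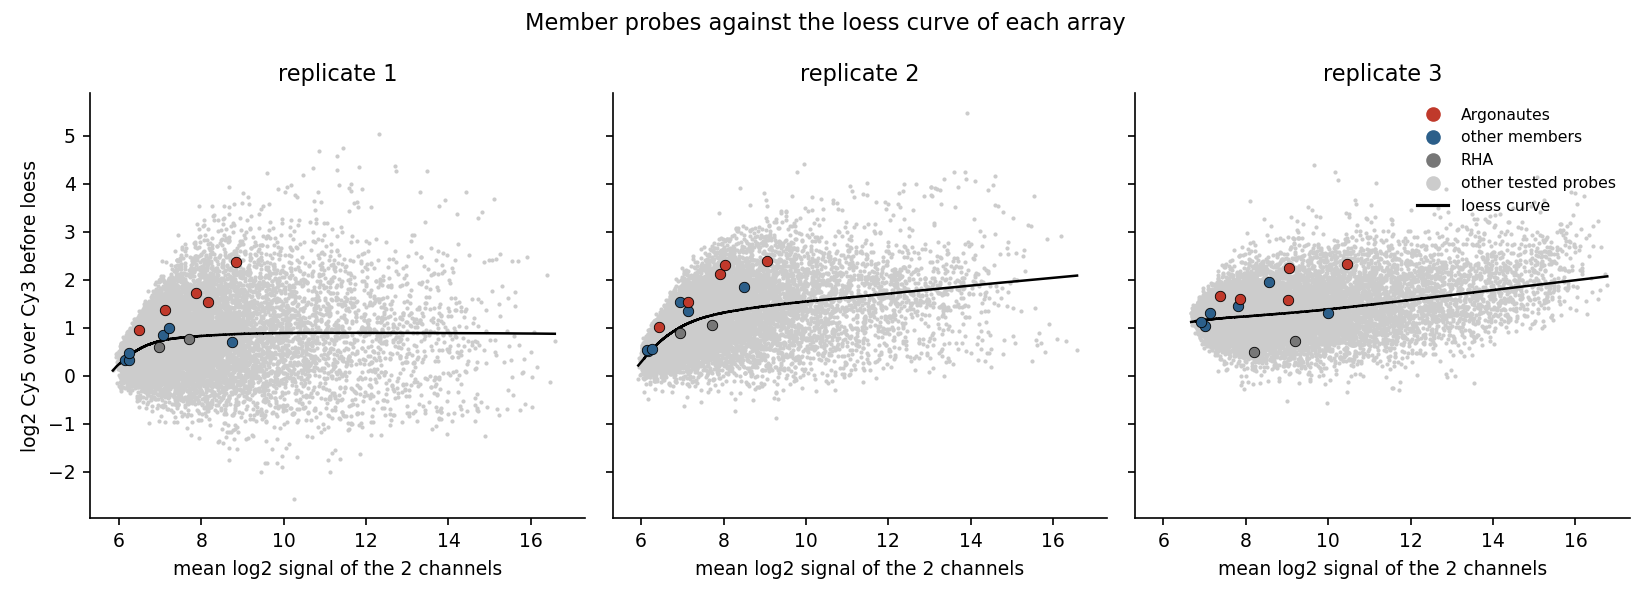
Log2 ratio of Cy5 over Cy3 before the loess step (vertical axis) against the mean log2 signal of both channels (horizontal axis) for the tested probes of each replicate, with the loess curve in black. The Argonaute probes lie above the curve on every array, and the other member probes lie nearer to it, apart from DROSHA and DICER1 on replicate 2 and PRKRA on replicate 3, which lie 0.45, 0.52 and 0.67 above it.

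With each array centred on the median of all its probes in place of the loess curve, the median of the tested probes moved from 0.018 to 0.30, and the Argonaute probes were higher too, with means of 1.43 and 0.61 for AGO1, 1.77 for AGO2, 1.21 for AGO3 and 0.91 for AGO4. PRKRA then passed the test, with a mean of 0.84 (limma, adjusted p = 0.0223), while the share of all tested probes called risen was 19.6%. Centred on the tested probes, PRKRA passed with 0.51 (limma, adjusted p = 0.0303) and the dimmer AGO1 probe did not, with 0.29 (limma, adjusted p = 0.152). The authors' deposited series table gave the Argonaute probes log2 ratios of 1.1, 0.92 and 1.08 for the brighter AGO1 probe, 1.62, 1.02 and 1.07 for AGO2, 0.77, 1.08 and 0.32 for AGO3, and 0.87, 0.55 and 0.49 for AGO4. The arrays kept the same order there for AGO3 and AGO4.

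**Figure D4:**
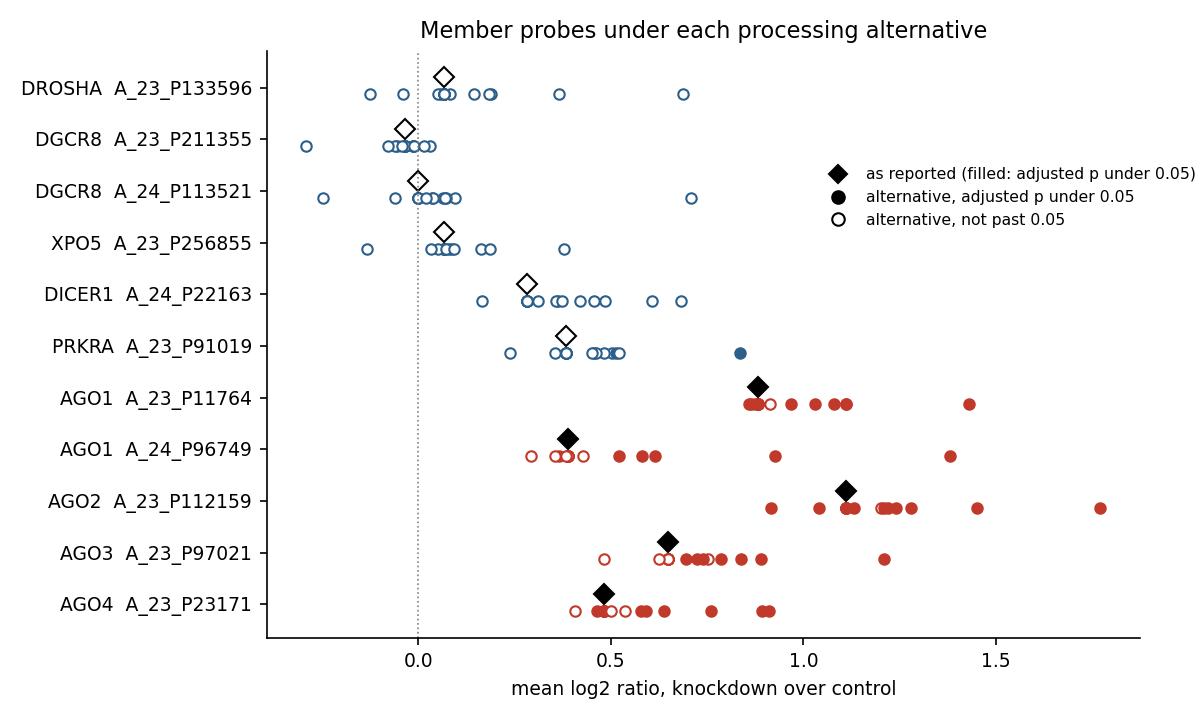
Mean log2 ratio of each tested member probe as reported (diamonds) and under each processing alternative (circles, filled where the adjusted p was under 0.05). All 74 values of the Argonaute probes lie above 0 and 59 of them are filled, while the DROSHA, DGCR8 and XPO5 probes cross 0. The dimmer AGO1 probe, whose calls add no support, gives 14 of the 74 values and 9 of the filled ones. Circles can cover each other, as those of PRKRA near 0.51 do.

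The probes whose 3 ratios lay closest to those of AGO2 were sought among 14313 tested probes of other RefSeq mRNA accessions. NM_032704, measured by A_23_P128161, had log2 ratios of 1.49, 1.03 and 0.95, at a Euclidean distance of 0.112 from AGO2. NM_201278, measured by A_23_P64019, had 1.55, 0.86 and 0.83, at a distance of 0.116. With 3 arrays and so many probes, near neighbours are found for most patterns, and these accessions are given without gene names, which the tables used here do not hold.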

How the data were processed

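Per the file headers, the authors extracted spot intensity values with Agilent Feature Extraction 10.9.1.1 (design 014850), and the deposited log10 ratio of Cy5 over Cy3 comes from the same software. The submitters' processing notes name version 10.9 and limma. The authors' deposited series table holds log2 ratios of unstated scale, centring and direction. Their medians were 0, 0.01 and 0.01, and they correlated at 0.996, 0.996 and 0.995 with loess-normalized Cy5 over Cy3 without background correction, so they were read as knockdown over control. Flags in the deposited files mark probes well above background and outlier spots.

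In R 4.3.3 with limma 3.58.1, median signals were corrected with normexp (offset 50) and normalized by loess with control spots at weight 0. Flagged spots, 142 to 150 of 43376 per array, were left out, none of them a member's, and no probe spot was saturated. A probe was tested when Cy3 was flagged as well above background on all 3 arrays, or Cy5 was, or both. Ratios were tested on an intercept (lmFit, eBayes, 2-sided), with Benjamini-Hochberg adjustment over all tested probes and a threshold of 0.05. The p-values and intervals rest on the spread between these 3 arrays, drawn by eBayes toward a variance estimated from all tested probes.

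All probes of the members and of RHA were named, and the nearest accessions by Euclidean distance. Members, lists and tests were chosen with earlier results of these data known. Gene names of members came with the list, as the files give accessions only. The planned lists of silencing cofactors and cell type markers need gene symbols and were not analysed here, and no probe sequences were used.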

Additional observations from a re-analysis of the deposited data

How the results depend on the processing

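The 5 Argonaute probes stayed above 0 in all 74 values under the 15 alternatives and past the threshold in 59, and 0 members were called fallen in any alternative. Many of these signs were fixed, since all arrays lay above 0 and several alternatives leave ratios unchanged. The dimmer AGO1 probe, whose calls add no support, gave 14 of the 74 values and 9 of the 59. Over the alternatives, the share of all tested probes called risen ran from 0% without replicate 2 to 19.6% with median centring. The number of called members was 3 with the robust variance, where the dimmer AGO1 probe and AGO3 had adjusted p of 0.0523 and 0.0512 (limma), and 0 to 3 with a replicate left out. AGO3 also missed it with Agilent's ratios (0.0818) and without the filter (0.0977). Over all probes, 2891 rose with offset 0, 3561 (59 fell) with median centring, 3125 with centring on tested probes, 2809 with Agilent's ratios, 1066 (997 fell) with no filter and 3001 (2523 fell) with the intensity trend. With a replicate left out, the risen probes numbered 0 to 1502 and the fallen ones 0 to 1419, both being 0 without replicate 2. Beyond the number of probes tested, the cause was not tested. Signs of several means near 0 turned. DGCR8 probe A_24_P113521 had 0.096 with offset 0, 0.063 without background correction, 0.073 with median centring, 0.71 with Agilent's ratios, 0.070 in the series table, 0.036 with array weights, and -0.059 to 0.038 with a replicate left out. A_23_P211355 had 0.030 with median centring and -0.079 to 0.015 with a replicate left out. XPO5 had -0.13 with centring on tested probes. DROSHA had -0.040 with Agilent's ratios and -0.13 to 0.18 with a replicate left out. It kept its sign but was larger with median centring (0.69) and with centring on tested probes (0.37). RHA had 0.26 and 0.068 with median centring. DGCR8 minus DROSHA turned to 0.027 with Agilent's ratios (-0.225 to 0.046 with a replicate left out), PRKRA minus DICER1 to -0.12 (-0.071 to 0.29), AGO4 minus AGO3 to 0.14 (-0.30 to 0.018), and AGO3 minus AGO1 to 0.013 with the mean of all probes of a member. Each ratio already pairs knockdown with control on its array, and with 1 group of arrays no further pairing was possible.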
